A study of Homo sapiens with 8 samples.

Results

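The members described here were the single guide RNAs of the human GeCKOv2 knockout library that target olfactory receptor genes. They were chosen by gene symbol alone, as guides whose gene is named OR followed by a family number, subfamily letters and a member number. This gave 2204 guides to 372 genes, or 1.84% of the 119461 guides in the library, and 362 of the genes had 6 guides. The screen was run in MB157R, a triple-negative breast cancer line made resistant to γ-secretase inhibition that carries Cas9 under blasticidin selection. The library was introduced with a minimum of 200 cells per guide, and after 4 days in puromycin the cells were combined, so all libraries stem from 1 pool. The groups were 3 cultures with LY3039478 at 10 µM, an inhibitor of γ-secretase (GSI), and 3 with its solvent DMSO, all harvested at day 14, and 2 aliquots frozen before the split (T0). Every group thus carried Cas9, a guide and both selections. The p-values of single guides below measure the spread between cultures or aliquots of this pool, not between independent transductions or lines. Those of genes compare the ranks of a gene's guides, taken as independent, and rest on the same cultures and aliquots.

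Olfactory receptors form the largest family of G protein-coupled receptors in the human genome. They bind odorants on the cilia of sensory neurons in the nose, where each neuron expresses a single receptor that signals through the G protein Golf, adenylyl cyclase 3 and a cyclic nucleotide-gated channel. Class I receptors resemble those of fish and class II receptors expanded in land vertebrates, and most of the genes sit in tandem clusters with a coding sequence in 1 exon. Outside the nose most are silent, so guides against them are widely used to show what a Cas9 cut does when the gene hit is not needed, whereas non-targeting guides carry no site in the genome and show growth without a cut. Genomic DNA was sequenced here and not RNA, so whether MB157R cells express any of the receptors was not analysed.

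By symbol, 369 of the 372 genes matched the GENCODE annotation of GRCh38 directly and 2 matched through an older symbol (OR5R1, now OR8U3, and OR8G2, now OR8G2P). No position was assigned to OR8U8. The genes lay on 17 chromosomes, with 163 on chromosome 11 and 58 on chromosome 1, and formed 38 groups when neighbours less than 1000000 bp apart were joined. There were 52 class I genes (families 51 to 56) and 320 class II genes, and 363 genes had a single coding exon. The members resemble each other: over the 368 genes with a coding sequence, the translated protein was a median of 70.4% identical to its closest relative among the members, with a range of 42.2 to 100%.

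Similarity at the DNA level bears on what a guide can cut. Candidate Cas9 sites, meaning 20 bases followed by NGG on either strand of the coding sequence, were searched for perfect matches on all chromosomes. A median of 7.87% of a gene's candidate sites occurred more than once in the genome. All sites were unique in 31 genes, whereas in 80 genes at least 50% of the sites had another perfect copy. The guides' own sequences were not analysed here, so the sites below are examples from the reference and not the library's guides. They are shown for the 6 genes that carry much of the gene-level description, each the first candidate site on the coding strand, read from GRCh38 from 5′ to 3′, with the NGG motif in capitals.
OR4F17: taactgcagaggctatttccTGG
OR2T1: ctctacagacttcactttcaTGG
OR10P1: actgcctgaattcctccttcTGG
OR2H1: ggttaaccaaagctcccccaTGG
OR51E2: catgccacctttgtgcttatTGG
OR5T2: agttaccttatttgtactgaAGG
The OR4F17 site had 3 perfect matches, at chr19:110626-110645 in OR4F17 itself, chr15:101923093-101923112 in OR4F4 and chr1:69038-69057 in OR4F5. The other 5 sites had 1 match each, at chr1:248406168-248406187 (OR2T1), chr12:55636915-55636934 (OR10P1), chr6:29461772-29461791 (OR2H1), chr11:4682671-4682690 (OR51E2) and chr11:56233026-56233045 (OR5T2). These intervals cover the 20 bases before the NGG, each within a coding exon.

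The 8 libraries held 12052218 to 18212884 counts, with a median of 66 to 112 counts per guide. In GSI replicate 1 a single guide to VPS33B, a gene of endosomal traffic, took 38.8% of all counts, against 0.0938 to 1.52% for the most abundant guide of each other library. Guides to olfactory receptors made up 1.23% of the counts in that library and 1.99 to 2.28% in the others, and counts were scaled by median-ratio factors, which a single guide does not move. Testing required 10 or more raw counts on average across the 8 libraries. Of the 2204 olfactory receptor guides 2188 passed, as did 999 of the 1000 non-targeting guides. For the gene-level test 366 genes had at least 4 tested guides, and 6 did not (OR11H12, OR2A42, OR2A7, OR4F29, OR4F5 and OR8U8, with 1 to 3 guides each).

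In abundance, olfactory receptor guides lay above the guides of other genes and below the non-targeting guides in every library. Their median normalised read count was 114, 119 and 109.7 in the 3 GSI cultures, 115, 116 and 113 in the 3 DMSO cultures, and 108 and 101 in the 2 T0 aliquots. The group means were 114 ± 4.77 with GSI, 115 ± 1.86 with DMSO and 104 ± 5.18 at T0 (SD, n = 3, 3 and 2). The GSI and DMSO cultures overlapped, and both T0 aliquots lay below all 6 cultures. For the guides of all other genes the group means were 91.5 ± 1.36 with GSI, 91.1 ± 1.21 with DMSO and 91.9 ± 2.51 at T0, and for the non-targeting guides 215 ± 8.77, 222 ± 8.14 and 182 ± 9.31.

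Set against the non-targeting guides of the same library, a ratio that hardly depends on the scaling, the olfactory receptor guides were lower by the following amounts, given as the difference of medians of log2(normalised count + 1). The difference was −0.83, −0.86 and −1.01 in the GSI cultures, −0.92, −0.88 and −1.03 in the DMSO cultures, and −0.70 and −0.90 at T0. The group means were −0.90 ± 0.09 with GSI, −0.95 ± 0.08 with DMSO and −0.80 ± 0.14 at T0. Most of the distance was thus already present at T0. Why the lists differed at T0 was not tested, since no sample from before transduction was among the groups. The change was 0.04 for GSI minus DMSO, −0.15 for DMSO minus T0 and −0.10 for GSI minus T0, and in each of the 3 the groups overlapped. The changes from T0 rested on the aliquots, with −0.04 for DMSO minus T0 and 0.00 for GSI minus T0 without T0 replicate 1, and −0.25 and −0.20 without T0 replicate 2. They turned to 0.07 and 0.20 when the mean over guides replaced the median.

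For the guides of all other genes, the distance to the non-targeting guides was −1.22 with GSI, −1.28 with DMSO and −0.98 at T0. It widened by −0.30 for DMSO minus T0 and by −0.24 for GSI minus T0, against −0.15 and −0.10 for the olfactory receptor guides. Measured against the median of all guides instead, the olfactory receptor guides stood at 0.32, 0.37 and 0.22 in the GSI cultures, 0.34, 0.34 and 0.27 in the DMSO cultures, and 0.19 and 0.16 at T0. Every culture at day 14 lay above both T0 aliquots on this scale.

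Few olfactory receptor guides were lost. At a raw count of 0 were 5, 23 and 15 of the 2204 guides in the GSI cultures, 29, 48 and 32 in the DMSO cultures, and 85 and 207 in the T0 aliquots. The share was 0.227% in GSI replicate 1 (95% Wilson interval 0.0969 to 0.530%). It was 3.86% in T0 replicate 1 (3.13 to 4.74%) and 9.39% in T0 replicate 2 (8.24 to 10.7%). These intervals take guides as independent draws within 1 library and leave out the spread between libraries. Zeros were thus most frequent before the 14 days of culture and not after them. The guides of other genes had the same order of T0 aliquots, with 5.07% and 11.5% at 0, whereas non-targeting guides had at most 1.00% at 0 in any library.

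The zeros moved between libraries. Of the olfactory receptor guides, 1901 (86.3%) were above 0 in all 8 libraries, against 81.8% of all guides. At 0 in both T0 aliquots were 34 guides (1.54%, against 2.21% of all guides), and 19 of these were above 0 in all 6 cultures at day 14. Examples were HGLibA_34583 against OR9Q1, with normalised counts of 101, 103 and 105 with GSI and 51.5, 131 and 122 with DMSO, and HGLibA_34067 against OR4X1, with 104, 189 and 104 with GSI and 102, 79.4 and 44.4 with DMSO. No olfactory receptor guide was at 0 in all 3 GSI cultures, and 4 (0.181%) were at 0 in all 3 DMSO cultures, against 0.577% of all guides.

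The first comparison, GSI against DMSO at day 14, addresses which knockouts change the growth of the resistant cells under the inhibitor. For the olfactory receptors the guides were spread evenly around 0. The median log2 fold change was −0.01 over 2188 guides, with 1116 below 0, against a median of −0.02 and 51.4% below 0 for all tested guides and −0.08 and 57.2% for the non-targeting guides. The spread (SD over guides) was 0.65 for olfactory receptor guides, 0.42 for non-targeting guides and 0.76 for the guides of other genes.

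No olfactory receptor guide passed edgeR's quasi-likelihood test after Benjamini-Hochberg adjustment in GSI against DMSO, as was so for every guide of the library (0% called). At an unadjusted p under 0.05, 26 guides were lower (1.19%, against 1.46% of all guides) and 30 higher (1.37%, against 1.55%). DESeq2 also called 0, as it did over all guides (0% called). In 98 guides all GSI cultures were below all DMSO cultures (4.48%, against 4.36% of all guides) and in 96 all were above (4.39%, against 4.72%). By each of these counts olfactory receptor guides were close to the share over the whole library.

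At the gene level, guides were combined by robust rank aggregation (RRA), which asks whether a gene's guides rank lower, or higher, than evenly spread ranks would. No olfactory receptor gene was called in GSI against DMSO, nor was any of the 18570 genes tested (0% called). At an unadjusted RRA p under 0.05, 17 of 366 genes were lower (4.64%, against 5.06% of all genes) and 20 higher (5.46%, against 4.99%). All tested guides were lower in 5 genes (1.37%, against 2.21%) and higher in 4 (1.09%, against 1.72%). The medians per gene ran from −0.77 for OR2H1 to 0.71 for OR5A1, with an SD over genes of 0.26.

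The gene at the low end was OR2H1, a class II receptor of the extended major histocompatibility region on chromosome 6. Its 6 guides averaged 116, 131 and 87.7 normalised counts with GSI and 177, 185 and 162 with DMSO, against 117 and 147 at T0. The GSI and DMSO cultures did not overlap in this mean, with 111 ± 21.9 against 174 ± 11.6 (SD, n = 3 each). All 6 guides were lower with GSI, with a median log2 fold change of −0.77 ± 0.38 (SD over guides) and a range of −1.17 to −0.36. Only 2 of the 6 had non-overlapping cultures, against 4.36% of all guides on the lower side. OR2H1 ranked 2 of 18570 on the low side (exact RRA p = 0.000301) and was not called (adjusted p = 0.959). The mean with GSI was close to that at T0, and 5 of the 6 guides had a positive fold change in DMSO against T0.

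The gene at the high end by RRA was OR2K2, a class II receptor on chromosome 9. Its guides averaged 161, 246 and 159 normalised counts with GSI, 145, 129 and 129 with DMSO, and 84.9 and 121 at T0. The GSI cultures lay above all the DMSO cultures, and the DMSO cultures above both T0 aliquots. The median log2 fold change was 0.67 ± 1.61 in GSI against DMSO (adjusted exact RRA p = 0.568), with 5 of 6 guides higher. The spread came mostly from HGLibB_33770, with 36.4, 85.8 and 196 counts with GSI, 3.29, 0 and 14.8 with DMSO, and 28.4 and 0 at T0, so that its low level in DMSO was also present in 1 of the T0 aliquots.

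The next comparisons, DMSO against T0 and GSI against T0, ask which guides were depleted or enriched over the 14 days. Both share the T0 aliquots, and each is given with its own values. In DMSO against T0 the olfactory receptor guides lay above the bulk of the library and below the non-targeting guides. Their median log2 fold change was 0.09, against 0.00 for all tested guides and 0.25 for the non-targeting guides, and 1009 (46.1%) were below 0, against 49.95% and 33.6%. In GSI against T0 the medians were 0.10 for olfactory receptor guides, −0.02 for all guides and 0.18 for the non-targeting guides, with 997 (45.6%) of the olfactory receptor guides below 0, against 50.8% and 37.7%.

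The sign of these medians depended on the scaling. A size factor shifts all guides of a library alike, so rescaling can hardly change the place relative to all guides. With size factors from the non-targeting guides alone, the medians of DMSO against T0 were −0.16 for olfactory receptor guides, −0.26 for all guides and 0.00 for the non-targeting guides, and those of GSI against T0 were −0.11, −0.22 and −0.03. The olfactory receptor median minus that of all guides was 0.09 in both scalings of DMSO against T0 and 0.12 and 0.11 in those of GSI against T0. The distance to the non-targeting guides rested on T0 replicate 1. Without it the medians were 0.34 for olfactory receptor and 0.31 for non-targeting guides in DMSO against T0, and 0.33 and 0.22 in GSI against T0, so that the olfactory receptor guides then lay above the non-targeting guides.

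The abundance of the guides differed between the lists, with a median mean count of 122 for olfactory receptor guides, 216 for non-targeting guides and 101 for other genes. Among guides with a mean count of 150 to 200 the medians of DMSO against T0 were 0.07 for 358 olfactory receptor guides, 0.44 for 187 non-targeting guides and 0.00 for the guides of other genes. At 300 counts and above they were 0.11, 0.14 and 0.04. In both bins olfactory receptor guides lay between the other lists. This order did not hold in every bin, since at 25 to 50 counts the medians of DMSO against T0 were 0.24 for olfactory receptor guides and 0.02 for 14 non-targeting guides. In GSI against T0 the olfactory receptor guides were above the non-targeting guides in the bins under 50 counts, and at 300 counts and above they stood at 0.00, against 0.14 for non-targeting guides and 0.01 for other genes. The spread depended on abundance, with an SD of 3.51 among olfactory receptor guides under 25 counts and 0.59 at 300 counts and above.

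No single olfactory receptor guide was called by edgeR in either comparison with T0, and no guide of the library was (0% called). At an unadjusted p under 0.05 the higher side held more olfactory receptor guides than the lower side. For DMSO against T0, 115 guides were higher (5.26%, against 4.19% of all guides) and 47 lower (2.15%, against 3.55%). For GSI against T0, 120 were higher (5.48%, against 4.72%) and 58 lower (2.65%, against 3.99%). With factors from the non-targeting guides the split turned, to 80 higher and 100 lower in DMSO against T0. In GSI against T0 it was 93 higher and 110 lower. These factors also moved the median of all guides, to −0.26 in DMSO against T0 and −0.22 in GSI against T0. The shares over all guides were not counted with them.

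With median-ratio factors, guides whose groups did not overlap were also more frequent on the higher side. After culture in DMSO all libraries were above both T0 aliquots in 381 olfactory receptor guides (17.4%, against 14.9% of all guides) and below them in 214 (9.78%, against 13.1%). After culture in GSI the counts were 400 above (18.3%, against 15.7%) and 228 below (10.4%, against 13.6%). Of the non-targeting guides 18.2% and 18.1% were above in the 2 comparisons, and 5.41% and 5.61% below. Olfactory receptor guides were thus close to the non-targeting guides on the upper side, and on the lower side they stood between these and the library.

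DESeq2, which estimates the spread differently, did call guides. For DMSO against T0 it called 93 olfactory receptor guides higher (4.25%, against 3.56% of all guides) and 19 lower (0.868%, against 2.1%). For GSI against T0 it called 114 higher (5.21%, against 4.38%) and 25 lower (1.14%, against 2.38%). The edgeR calls also depended on single T0 libraries. Without T0 replicate 1, edgeR called 166 higher and 13 lower in DMSO against T0 (7.59% and 0.594%, against 6.18% and 0.939% of all guides), and 340 higher and 70 lower in GSI against T0 (15.5% and 3.20%, against 14% and 4.06%). Without T0 replicate 2 it called 0 in DMSO against T0 (against 0.00599% of all guides higher and 0.0103% lower), and 94 higher and 20 lower in GSI against T0 (4.30% and 0.914%, against 3.52% and 1.19%). With 1 T0 library left, its spread was assumed to be that of the cultures.

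At the gene level no olfactory receptor gene was called in either comparison. In DMSO against T0, 6 of the 18570 genes tested were called lower (0.0323%) and 0 higher, and in GSI against T0 the counts were 0 and 0 (0% called). At an unadjusted RRA p under 0.05, 7 of 366 olfactory receptor genes were lower (1.91%, against 6.12% of all genes) and 34 higher (9.29%, against 5.3%) in DMSO against T0. In GSI against T0, 8 were lower (2.186%, against 5.7%) and 24 higher (6.56%, against 5.39%). All tested guides were higher in 13 genes in DMSO against T0 (3.55%, against 2.12%) and lower in 3 (0.820%, against 2.68%), with 16 (4.37%, against 2.02%) and 3 (0.820%, against 2.63%) in GSI against T0. By these counts, which carry no test, olfactory receptor genes were a smaller share on the lower side and a larger share on the higher side than all genes. The median per gene was below 0 in 139 genes in DMSO against T0 (38.0%, against 49.6% of all genes) and in 153 in GSI against T0 (41.8%, against 51.3%).

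The gene at the low end of DMSO against T0 was OR4F17, a class II receptor near the end of the short arm of chromosome 19 (chr19:107104-117102, plus strand, 2 coding exons), which ranked 13 of 18570. Its 6 guides averaged 297, 370 and 260 normalised counts with GSI and 232, 249.6 and 311 with DMSO, against 501 and 526 at T0. The group means were 309 ± 55.96 with GSI, 264 ± 41.7 with DMSO and 513 ± 17.2 at T0 (SD, n = 3, 3 and 2), and neither group of cultures overlapped the T0 aliquots.

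All 6 OR4F17 guides were lower in DMSO against T0, with a median log2 fold change of −0.88 ± 0.45 (SD over guides), and the gene was not called (exact RRA p = 7.08e-05, adjusted p = 0.0914). The adjusted p ran from 0.0849 with factors from the non-targeting guides to 0.648 without T0 replicate 1 over the alternative settings. Its median in GSI against T0 was −0.73 ± 0.48 with 5 of 6 guides lower (adjusted p = 0.413), with adjusted p-values of 0.231 without GSI replicate 2 to 0.982 without T0 replicate 1. In GSI against DMSO the median was 0.29, with overlapping cultures.

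The guides of OR4F17 can be followed one by one. HGLibA_33994 had 519, 715 and 523 normalised counts with GSI, 517, 514 and 756 with DMSO, and 914 and 1227 at T0, and was the most abundant olfactory receptor guide of T0 replicate 2. HGLibB_33950 had 677, 869 and 430 with GSI, 437, 413 and 653 with DMSO, and 761 and 1122 at T0. HGLibA_33995 had 123, 103 and 91.9 with GSI, 79.99, 147 and 50.1 with DMSO, and 414 and 164 at T0. The fold change in DMSO against T0 was −0.85, −0.91 and −1.64 for these 3 guides, whose DMSO cultures all lay below both T0 aliquots.

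HGLibB_33951 and HGLibA_33996 had log2 fold changes of −1.41 and −0.65 in DMSO against T0. Their counts were also non-overlapping, with 114, 204 and 146 with DMSO against 518 and 302 at T0 for HGLibB_33951, and 195, 185 and 189 against 276 and 321 for HGLibA_33996. The remaining guide, HGLibB_33949, was the rarest, with 90.2, 50.9 and 79.4 with GSI, 46.0, 35.2 and 72.9 with DMSO, and 125 and 18.0 at T0, where the aliquots lay on both sides of the cultures. In all, 5 of the 6 guides did not overlap in DMSO against T0 and 4 of 6 in GSI against T0. Over all guides the shares on the lower side were 13.1% and 13.6%. OR4F17 was named for its low RRA p in these same values, so these counts are not a separate result.

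OR4F17 belongs to a group of near-identical genes spread over chromosome ends, and its protein was 99.1% identical to that of OR4F5. Of its 96 candidate sites 99.0% occurred more than once, with a median of 3 perfect copies and at most 4. Copies were found in OR4F4 for 90 of the 96 sites and in OR4F5 for 83. A guide to OR4F17 can therefore cut several loci, as with the site printed above, and the part of that in its fold change was not tested. The 3 guides named for OR4F5, too few for the gene test, did not share a direction, with log2 fold changes of −0.97, 0.68 and −0.04 in DMSO against T0 and mean counts of 101, 65.4 and 71.0 with GSI, 89.9, 75.8 and 99.1 with DMSO, and 96.2 and 90.2 at T0.

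OR4F16 and OR4F29, whose proteins were identical, had a median of 10 copies per candidate site. OR4F16 had a median log2 fold change of −0.54 ± 1.56 over 5 guides in DMSO against T0, with 4 lower (adjusted exact RRA p = 0.758), and its mean counts of 230, 263 and 247 with DMSO overlapped the 252 and 341 at T0. The 1 guide to OR4F29 had 664, 566 and 439 normalised counts with GSI, 758, 399.9 and 441 with DMSO, and 587 and 492 at T0. The groups overlapped for that guide.

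Across all members, the number of copies showed no steady relation to the fold change. In DMSO against T0 the median was 0.09 for 1710 guides to genes with a median of 1 copy per site, 0.11 for those above 1 and up to 2 copies, 0.12 for 115 guides above 2 and up to 3, and −0.34 for 27 guides above 3. The last group came from 6 genes (OR11H1, OR11H12, OR11H2, OR4F16, OR4F29 and OR4N4), and 16 of its 27 guides were below 0. Its median was −0.08 in GSI against T0 and 0.26 in GSI against DMSO. By the share of sites with another copy, the medians of DMSO against T0 were 0.06 where no site was repeated (185 guides) and 0.06 where more than 80% were (128 guides), with 0.09 to 0.12 in between.

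The near-identical genes, with proteins at least 97% identical to another member, were 18 in number. They formed the pairs OR11H1 with OR11H2, OR2A1 with OR2A42, OR2A4 with OR2A7, OR2T2 with OR2T35, OR2T29 with OR2T5, OR2T3 with OR2T34, OR4F16 with OR4F29, OR4F17 with OR4F5, and OR8B2 with OR8B3. Over their 89 guides the median was 0.06 in GSI against DMSO, 0.06 in DMSO against T0 and 0.01 in GSI against T0. Members of a pair did not always have like values, as OR11H1 stood at −0.32 and OR11H2 at 0.98 in DMSO against T0, OR2T29 at 0.30 and OR2T5 at −0.55, and OR2T3 at 0.98 and OR2T34 at 0.15. OR8B2 and OR8B3 were close to each other, at 0.48 and 0.37. None was called.

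The share of repeated sites varied among the other receptors at the low end after 14 days, with 66.4% in OR3A2, 38.6% in OR52K1, 4.26% in OR2T1, 2.31% in OR10P1 and 0.658% in OR13A1. OR2T1, a class II receptor of the large cluster at the end of chromosome 1, averaged 207, 212 and 161 normalised counts with GSI, 187, 187 and 159 with DMSO, and 220.5 and 326 at T0, so that both T0 aliquots were above every culture. Its median log2 fold change was −0.79 ± 0.44 in DMSO against T0 with 5 of 6 guides lower (adjusted exact RRA p = 0.672), and −0.53 ± 0.24 in GSI against T0 with 6 of 6 lower (adjusted p = 0.686). In DMSO against T0, 3 of the 6 guides had non-overlapping groups, against 13.1% of all guides on the lower side.

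OR10P1, a class II receptor on chromosome 12, averaged 141, 101 and 115 counts with GSI, 105, 127 and 111 with DMSO, and 187 and 186 at T0. The T0 aliquots were again above all the cultures. Its guides differed among themselves, with log2 fold changes from −2.03 to 1.59 in DMSO against T0 and a median of −0.95 ± 1.42 (adjusted exact RRA p = 0.640), and a median of −1.20 ± 1.47 in GSI against T0 (adjusted p = 0.566), the lowest of the members there. HGLibB_33490 went against the others, with 358, 98.5 and 249.6 counts with GSI, 127, 117 and 226 with DMSO, and 103 and 0.949 at T0.

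On the high side the guides of a gene did not always share a direction, and OR8G1 and OR10G9 were among the 8 members with the lowest RRA p while their medians were −0.10 in DMSO against T0 and −0.19 in GSI against T0. Among these lowest p-values, OR5T2 and OR51T1 in DMSO against T0 and OR2A12 and OR2K2 in GSI against T0 had all 6 guides higher. OR5T2, a class II receptor of the chromosome 11 cluster near the centromere, averaged 211, 250.3 and 121 counts with GSI, 256, 221 and 135 with DMSO, and 85.2 and 76.6 at T0. The group means were 194 ± 66.5 with GSI, 204 ± 62.0 with DMSO and 80.9 ± 6.11 at T0, and no culture overlapped T0. All 6 guides were higher in DMSO against T0, with a median of 1.26 ± 1.09 (adjusted exact RRA p = 0.730). Of these, 4 had non-overlapping groups, against 14.9% of all guides on the higher side. OR51T1, a class I receptor of the chromosome 11 short arm, also had 6 of 6 guides higher, with a median of 0.68 ± 0.42 (adjusted p = 0.827).

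OR2A12, a class II receptor on chromosome 7, averaged 120, 120.0 and 162 counts with GSI, 127, 122 and 112 with DMSO, and 73.6 and 58.1 at T0. All 6 guides were higher in GSI against T0, with a median of 1.24 ± 0.78 (adjusted exact RRA p = 0.810). Of these, 5 had non-overlapping groups, against 15.7% of all guides on the higher side. OR2K2, described above, had 6 of 6 guides higher in GSI against T0 (0.86 ± 0.91, adjusted p = 0.810). None of these genes was called on the high side, where the smallest adjusted p among the members was 0.730 in DMSO against T0 and 0.810 in GSI against T0.

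The single guides with the lowest p were not always joined by the other guides of their gene. The OR2K2 guide described above was the first on the high side of GSI against DMSO, and 5 of the 6 guides of that gene were higher. HGLibB_33438 against OR10AG1 had the lowest p on the low side of DMSO against T0, at −4.28 (adjusted p = 0.503 by edgeR), with 35.0, 21.5 and 47.0 normalised counts with GSI, 8.77, 1.81 and 15.9 with DMSO, and 196 and 150 at T0, while the median over the guides of OR10AG1 was 0.29. HGLibA_34516 against OR8G1 was at the high end, with 140, 71.5 and 87.7 with GSI, 240, 116 and 70.6 with DMSO, and 0.837 and 0.949 at T0, or 1 read in each T0 aliquot, while the median over the guides of OR8G1 was −0.10. In GSI against DMSO, HGLibB_33520 against OR11G2 had 139, 165 and 123 with GSI and 333, 352 and 354 with DMSO (−1.28, adjusted p = 1 by edgeR), and 60.2 and 141 at T0, while the median of OR11G2 was −0.12.

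Some receptors have roles or ligands known in or outside the nose. OR51E2, a class I receptor abundant in prostate that responds to short-chain fatty acids, averaged 249, 261 and 293 counts with GSI, 222, 299 and 201 with DMSO, and 183 and 183 at T0. Its median was 1.16 ± 0.86 in DMSO against T0 (adjusted exact RRA p = 0.882) and 1.03 ± 0.99 in GSI against T0 (adjusted p = 0.810). In each, 4 of 6 guides were non-overlapping, against 14.9% and 15.7% of all guides on the higher side. The cultures were above T0, but the guides split, since HGLibB_34054 had 277, 355 and 249.6 with GSI, 255, 384 and 226 with DMSO, and 469 and 347 at T0. Its neighbour OR51E1, which is likewise expressed in prostate and binds fatty acids, stood at 0.57 in DMSO against T0 (adjusted p = 0.916) and 0.65 in GSI against T0.

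OR1D2, described in sperm, had a median of 0.02 in GSI against DMSO, 0.18 in DMSO against T0 and 0.09 in GSI against T0. OR2AT4, described in keratinocytes, stood at −0.13, −0.09 and −0.54 in the same comparisons. OR7D4, the androstenone receptor, had a median of −0.01 in GSI against DMSO, −0.64 ± 0.44 in DMSO against T0, where 5 of 6 guides were lower, and −0.28 in GSI against T0. OR5A1, the β-ionone receptor, was the highest member by median in GSI against DMSO, at 0.71 ± 0.79 (adjusted exact RRA p = 0.968), and stood at −0.13 in DMSO against T0 and 0.51 in GSI against T0. OR1A1 and OR6A2, which bind terpenoids and aldehydes among others, stood at −0.35 and 0.45 in GSI against DMSO, −0.25 and −0.21 in DMSO against T0, and −0.55 and −0.25 in GSI against T0. None was called.

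The members can be divided by class, family and place in the genome. Class I guides had a median of 0.01 in GSI against DMSO, 0.13 in DMSO against T0 and 0.16 in GSI against T0, and class II guides −0.02, 0.09 and 0.07. Among 14 families with at least 30 tested guides, the medians of DMSO against T0 ran from −0.04 in family 4 (273 guides) to 0.28 in family 11 (44 guides), and 12 were above 0. In GSI against T0 they ran from −0.03 in family 5 to 0.25 in family 51, with 13 above 0, and in GSI against DMSO from −0.08 in family 7 to 0.05 in family 51, with 4 above 0. These medians carry no test.

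Since neighbouring genes can share copy number, each cluster was also set beside the guides of other genes within 5 Mb. This was possible in 17 clusters with at least 30 tested guides, which held 336 genes and 1988 guides. The olfactory receptor median was above that of its neighbours in 15 of 17 clusters in DMSO against T0 (differences of −0.04 to 0.28, median 0.13), in 15 of 17 in GSI against T0 (−0.06 to 0.38, median 0.09) and in 7 of 17 in GSI against DMSO (−0.11 to 0.12, median −0.02). The SD over guides was smaller than that of the neighbours in 13, 11 and 15 clusters in the same order. Clusters share libraries, so these counts are a description and carry no test.

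The largest cluster, at chr11:4367263-7941708 with 64 genes and 381 guides, had a median of 0.16 in DMSO against T0, against 0.10 for its neighbours. The cluster at chr11:54603069-56989843, with 47 genes, stood at 0.13 against −0.05, and the cluster at chr1:247449118-248682328, with 39 genes, at 0.17 against 0.04. The widest difference in GSI against T0 was in the cluster at chr9:122476958-122801073 with 14 genes, at 0.26 against −0.12, and it was 0.13 against −0.16 in DMSO against T0.

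The library was delivered in parts A and B, which were combined, and the guides of both parts cover the same receptors. In GSI against DMSO the olfactory receptor guides of part A had a median of 0.03 and those of part B −0.07. In DMSO against T0 the medians were 0.04 and 0.17, and in GSI against T0 0.10 and 0.08. The part A minus part B difference in median log2 level was 0.24, −0.10 and −0.16 in the GSI cultures, −0.03, −0.20 and −0.19 in the DMSO cultures, and 0.02 and −0.01 at T0. GSI replicate 1, the library with the abundant VPS33B guide, was the 1 culture where olfactory receptor guides had a higher level of part A. The guides of other genes showed a difference of 0.39 there, 0.03 in DMSO replicate 1 and 0.10 in T0 replicate 1. In the remaining libraries their part B level was the higher.

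Genes that act with the receptors gave no calls either. Of the olfactory signalling list, 12 genes were tested (among them GNAL, which encodes Golf, ADCY3 for the cyclase, and CNGA2, CNGA4 and CNGB1 for the channel), and 0 had an unadjusted RRA p under 0.05 on either side of any comparison. The median was below 0 in 6 in GSI against DMSO, 6 in DMSO against T0 and 7 in GSI against T0. The lowest p belonged to REEP1, which helps receptors reach the cell surface, with −1.10 in DMSO against T0 and 6 of 6 guides lower (adjusted exact RRA p = 0.851). STOML3, a membrane protein of sensory cilia, stood at 0.39 in GSI against T0.

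Other receptor and protein families that are mostly silent in epithelial lines were measured the same way, and so were the microRNA guides as a further list. The 37 tested genes of taste, vomeronasal and trace amine receptors had guide medians of −0.04 in GSI against DMSO, 0.02 in DMSO against T0 and 0.02 in GSI against T0. The 88 keratin-associated protein genes stood at −0.00, −0.01 and 0.02, and the microRNA guides at 0.01, −0.00 and 0.01. By guide median the olfactory receptors, at −0.01, 0.09 and 0.10, were the highest of these 4 lists in both comparisons with T0. This difference was not tested. Over gene medians, GSI against T0 gave 0.0943 for olfactory receptors, 0.0989 for keratin-associated proteins and 0.0897 for taste, vomeronasal and trace amine receptors. In DMSO against T0 these gene medians were 0.12, −0.06 and 0.05. None of the taste, vomeronasal, trace amine receptor or keratin-associated protein genes tested was called, and microRNAs were not tested at the gene level.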

How the data were processed

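Guide inserts were amplified from genomic DNA and sequenced as single reads. The authors' processing notes name bcl2fastq 2.19 and FastQC 0.11.5 for the reads and MAGeCK 0.5.9.2 for the counts per guide. The deposited table of raw counts per guide was the basis of every test. The deposited normalized table holds a signal per guide that equals the raw count times a constant in each library, and it served only as an alternative. Reads carry no molecular identifiers. The intervals of the shares at a count of 0 are over guides within 1 library and leave out the spread between libraries. Totals of 12052218 to 18212884 counts per library set the precision, which was low for guides with few counts.

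Guides averaging 10 or more raw counts over all libraries (116852, or 97.8%) were tested in R 4.3.3 by edgeR 4.0.16, with limma 3.58.1, using its quasi-likelihood functions (glmQLFit, glmQLFTest) and median-ratio size factors, in 3 fits that each held only the groups compared. Genes with at least 4 tested guides were tested by RRA (alpha 0.25, p by an exact recursion for uniform ranks), without non-targeting and microRNA guides. P-values were adjusted by Benjamini-Hochberg over all guides or all genes, with calls at an adjusted p under 0.05. A gene's fold change is the median over its guides. Normalised counts are raw counts divided by the size factor, and levels are log2(normalised count + 1). Medians over members carry no test. The procedure was also run on simulated counts, drawn with the same setting of spread for every library. These do not cover the difference between the T0 aliquots.

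Positions and coding sequences came from GENCODE on GRCh38, and protein identity from translated GENCODE coding sequences. The files give symbols, no coordinates and no genome build. Alternatives were other size factors, other count minimums, a joint fit, a replicate block, DESeq2 1.42.0, an RRA alpha of 0.1, at least 3 guides per gene, members under 90% identical to each other, pseudocounts of 0.5 and 5, mean instead of median levels, and each library left out. The genes named were the 8 members with the lowest RRA p and the 4 guides with the lowest edgeR p on each side of each comparison, 8 receptors with known roles, and members at least 97% identical to another, from which the text gives examples. The members and lists were chosen with earlier results of these data known.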

Additional observations from a re-analysis of the deposited data

How the results depend on the processing

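No olfactory receptor gene was called under any alternative in the 3 comparisons, and no guide in GSI against DMSO. DESeq2 called 112 guides in DMSO against T0 and 139 in GSI against T0. Over all guides of the library it called 2.1% lower and 3.56% higher in DMSO against T0. In GSI against T0 it called 2.38% of all guides lower and 4.38% higher. Guides of the whole library were also called when a T0 library was left out, with the shares given above. The counts that follow are therefore not particular to olfactory receptor guides. Leaving out 1 library gave 0 to 179 guide calls in DMSO against T0 and 0 to 410 in GSI against T0, where 179 and 410 came without T0 replicate 1 and 114 without T0 replicate 2. The olfactory receptor minus non-targeting level changed by −0.15 (DMSO minus T0) and −0.10 (GSI minus T0) as medians, and by 0.0723 and 0.201 as means over guides, and the cause was not tested. Without 1 library it ran from −0.25 to −0.04, from −0.20 to 0.00 and, for GSI minus DMSO, from 0.00 to 0.10. Under every alternative the olfactory receptor fold change minus that of all guides stayed above 0 in both comparisons with T0. Other size factors shift all guides alike and could hardly move this difference. Without 1 library it ran from 0.08 to 0.14 in DMSO against T0 and from 0.06 to 0.16 in GSI against T0. For GSI against DMSO it ran from −0.02 to 0.04 without 1 library. Library totals moved the median of all guides to −0.22 in GSI against DMSO and −0.16 in GSI against T0. Same-numbered GSI and DMSO cultures correlated at 0.280, 0.0644 and 0.121 in their deviations. Differently numbered cultures correlated at −0.161 to 0.0455, below each same-numbered value. The main fits did not take the numbers as pairs, and whether same-numbered cultures belong together was not tested. With the replicate block edgeR called 0 olfactory receptor guides in each comparison, as without it. Guides under 25 counts had too wide a spread to show small changes.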
